A study of Mus musculus with 2 samples.

Results

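The genes described here are 10 transcription factors of the neural crest: Dlx5, Dlx6, Msx1, Msx2, Tfap2a, Tfap2b, Foxc1, Foxc2, Snai2 and Tbx2. They form a list by name and known role. Its rule uses no measured value, but it was drawn up with earlier results of these data known. On the array they were represented by 14 of 41150 probes, each printed as 1 spot. A probe counted as measured if it was well above background, by the scanner software's flag, in at least 1 region on both arrays. By that rule 10 of the 14 probes and 9 of the 10 genes were measured, among 21366 genes or transcripts measured in all, and Dlx6 was not.

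The neural crest is a transient population of cells that leaves the dorsal neural tube of the embryo and migrates into the pharyngeal arches and the outflow tract of the heart. Its cells build the smooth muscle of the ascending aorta and aortic arch, while the smooth muscle of the descending thoracic aorta comes from the somites and that of the aortic root in part from the second heart field. AP-2 proteins (Tfap2a, Tfap2b), Msx1 and Msx2 act early, where the crest is induced under bone morphogenetic protein (BMP) signals, and Snai2 marks crest cells. Dlx5 and Dlx6 pattern the arches downstream of endothelin, and Foxc1, Foxc2 and Tbx2 take part in remodelling the arch arteries and the outflow tract.

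The samples were 2 pools of total RNA from the aortas of C57Bl/6 mice aged 16 weeks, a wild-type inbred strain, and each pool held RNA of 6 animals (3 males and 3 females). The arch pool came from the atherosclerosis-prone region: the aortic root, the arch proper and 2 mm of vessel beyond it. The thoracic pool came from the resistant region, the central thoracic aorta, which was the following 6 mm. Both had been perfused with the detergent Triton X-100 to strip the endothelium, and they were hybridised together to 2 Agilent mouse arrays of the two-colour kind. Array 1 carried the arch pool in the red dye Cy5, and array 2 carried it in the green dye Cy3. The arrays are a technical repeat of 1 sample per region, so no difference has a biological replicate check and no test or p-value is given, and precision is limited by there being 2 arrays.

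Between 71.3% and 81.5% of gene spots were well above background in each channel. All 10 smooth muscle markers were measured in these vessel walls and none differed by the rule used below (median log2 ratio −0.07). Ratios are given as log2 of arch over thoracic, as the mean of arrays 1 and 2, with ± for how far each array lies from that mean, which is a technical error. Signals are normalised intensities per channel, which contain an added offset of 50 units, and the median negative control spot read from 57.1 to 58.5 on that scale. The offset shrinks ratios, most of all for dim probes, so the log ratio computed by the scanner software, which carries no such offset, is given beside it for the 9 measured genes and for any other gene whose ratio it moved by over 0.2. RNA of a whole vessel wall cannot tell fewer cells of a type from less RNA per cell.

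The 9 measured genes did not share a direction. Dlx5, Msx1, Msx2, Tbx2, Tfap2a and Tfap2b had mean ratios above 0, and Foxc1, Foxc2 and Snai2 had ratios below 0. The ratios ran from −0.50 (Snai2) to 0.44 (Dlx5), with a median of 0.02, against a median of 0.00 and 51.5% above 0 over all genes. A gene was called if both arrays showed it 1.5-fold or more to the same side. This held for 0 of the 9, against 0.487% of all genes (0.257% higher and 0.229% lower in the arch). By the scanner software's ratios, which called 0.711% of all genes higher, 0.599% lower and 1.31% in either direction, Snai2 was called lower in the arch. Msx2 passed the same rule as higher, but its thoracic signal was not well above background on array 2 and it was measured through the arch. Both arrays gave the same sign for 7 of the genes, and opposite signs for Tfap2a and Tfap2b.

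**Figure D1:**
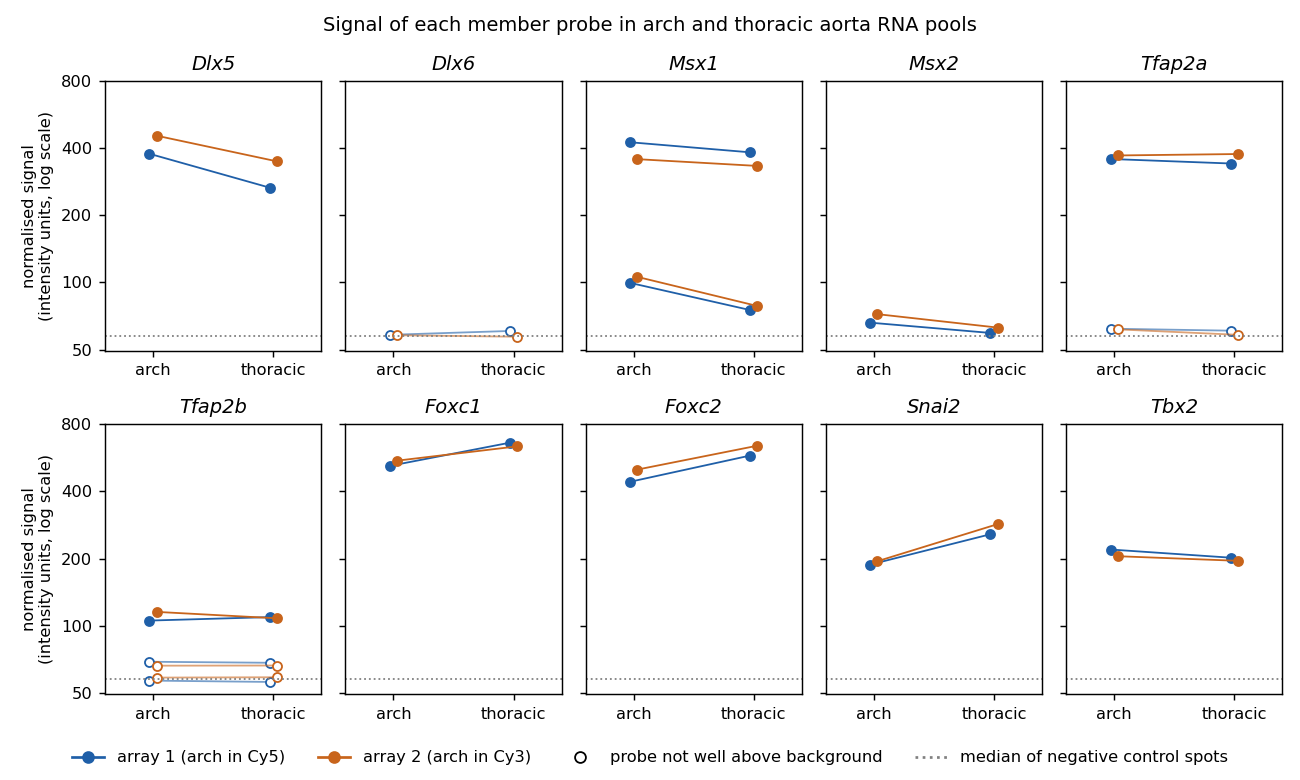
Normalised signal (intensity units, log scale) of every probe of the 10 genes in the arch pool and the thoracic pool, 1 line per probe and array; open symbols mark probes that were not well above background in either region on both arrays, and the dotted line is the median of the negative control spots. Lines of Dlx5 slope down towards the thoracic pool and lines of Foxc1, Foxc2 and Snai2 slope up, on both arrays.

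Dlx5 is a homeodomain protein that patterns the lower part of the pharyngeal arches and later drives bone formation. Its probe read 377 and 455 units in the arch pool on arrays 1 and 2, against 266 and 349 units in the thoracic pool. The arch signal was above the thoracic signal of both arrays, so the regions did not overlap. How many of all genes separate in this way was not counted, here or for the genes below. Both signals of a region come from the same pool. The log2 ratio was 0.44 ± 0.06, or 1.36-fold, with 0.50 on array 1 and 0.38 on array 2, and the scanner software gave 0.53 ± 0.09. Dlx5 was short of the 1.5-fold rule by both, although array 1 alone passed 1.5-fold by the scanner software (0.62, with 0.44 on array 2). It ranked 128th from the highest of 21366 genes.

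Dlx6 lies beside Dlx5 on chromosome 6 and is expressed with it in the embryo, under shared enhancers. Its probe was not well above background in either region on either array, at 58.2 and 58.0 units in the arch pool and 60.6 and 57.1 in the thoracic pool. These signals are those of the negative controls, so no ratio is given. Of the other members of the family, Dlx2 was measured at 0.05 ± 0.06, while Dlx1, Dlx3 and Dlx4 were not well above background on both arrays in either region. Of 6 DLX genes 2 were thus measured, and Dlx5 lay farther from 0 than Dlx2.

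Msx1 and Msx2 are homeodomain repressors that BMP signals switch on, and Msx2 is also known in vascular calcification. RefSeq's promoter table (GRCm38.p6) was matched by symbol for 5 of the 10 genes, Msx1 and Msx2 among them. The 250 bases before the start of each of these related genes are shown because both had mean ratios above 0. That side has limits: Msx2 was measured only through the arch pool, where it read higher. Under another normalisation given below Msx1 lay at −0.02, and their relative Msx3 lay below 0. Capitals mark matches, on either strand, to words bound by the protein families described here: TAATTA (homeodomain core), CAGGTG (the E-box of Snail proteins), GCCNNNGGC (AP-2), TAAACA (forkhead core) and AGGTGT (T-box half-site, which shares AGGTG with the E-box).
Msx1, chr5:37824586-37824835, minus strand: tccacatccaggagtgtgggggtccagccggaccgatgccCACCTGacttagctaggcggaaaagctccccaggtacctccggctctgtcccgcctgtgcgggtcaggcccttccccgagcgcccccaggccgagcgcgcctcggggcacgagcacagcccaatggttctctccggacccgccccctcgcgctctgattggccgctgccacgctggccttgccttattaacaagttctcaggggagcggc
Msx2, chr13:53472781-53473030, minus strand: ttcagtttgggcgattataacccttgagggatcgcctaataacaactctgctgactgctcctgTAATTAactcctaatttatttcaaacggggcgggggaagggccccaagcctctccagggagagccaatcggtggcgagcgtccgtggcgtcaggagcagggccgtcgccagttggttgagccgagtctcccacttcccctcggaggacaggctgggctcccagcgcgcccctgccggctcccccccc
The Msx1 window holds 1 E-box, which begins 210 bases before the start, and the Msx2 window 1 homeodomain core, which begins 187 bases before it. Of all 32851 promoter windows of this length, 17.2% hold the E-box word and 4.84% the homeodomain word. The windows share none of the 5 words.

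Msx1 had 2 measured probes, made for the same transcript. The brighter read 425 and 357 units in the arch pool, against 383 and 333 in the thoracic pool, and gave 0.13 ± 0.02. The dimmer read 99.6 and 106 units in the arch pool, against 75.2 and 78.4 in the thoracic pool, and gave 0.42 ± 0.01. The regions overlapped at the brighter probe, taken over both arrays, and not at the dimmer. Both probes lay above 0 on each array, but they disagreed on the size. By the scanner software's ratios the gap was wider, at 0.16 ± 0.03 for the brighter probe and 1.19 ± 0.06, or 2.28-fold, for the dimmer. The dimmer probe met the 1.5-fold rule by those ratios and with an offset of 0 (0.97 ± 0.02), and the brighter probe, which stands for the gene, by neither.

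Msx2 was dim. Its probe read 66.0 and 72.1 units in the arch pool, against 59.4 and 62.7 in the thoracic pool. It was well above background in the arch on both arrays and in the thoracic pool on array 1 only, so the thoracic level was measured on 1 of 2 arrays. The log2 ratio was 0.18 ± 0.02 with the offset of 50, 0.75 ± 0.12 with an offset of 0 and 0.91 ± 0.21 by the scanner software. The last 2 met the 1.5-fold rule, against a thoracic signal that array 2 did not place well above background. With an offset of 0, 0.548% of all genes were called higher and 1.03% in either direction. The third family member, Msx3, measured −0.02 ± 0.03.

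Tfap2a and Tfap2b encode AP-2 alpha and AP-2 beta, which specify crest cells, and AP-2 beta is known for its part in closing the ductus arteriosus. Both carried older names (Tcfap2a and Tcfap2b) in the files. The brighter Tfap2a probe read 358 and 371 units in the arch pool, against 341 and 377 in the thoracic pool. The regions overlapped, and the ratio was 0.02 ± 0.04 (0.03 ± 0.05 by the scanner software). Tfap2b read 105 and 115 units in the arch pool, against 109 and 108 in the thoracic pool, with overlapping regions and a ratio of 0.02 ± 0.07 (0.05 ± 0.12 by the scanner software). A dimmer probe of each gene was well above background only in the Cy3 channel, whichever region that dye carried, and the remaining probe of Tfap2b in neither channel, so these 3 probes were not used. In the rest of the family, Tfap2e measured 0.13 ± 0.14, Tfap2d 0.04 ± 0.01 and Tfap2c −0.02 ± 0.01, and 0 of the 5 AP-2 genes were called.

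**Figure D2:**
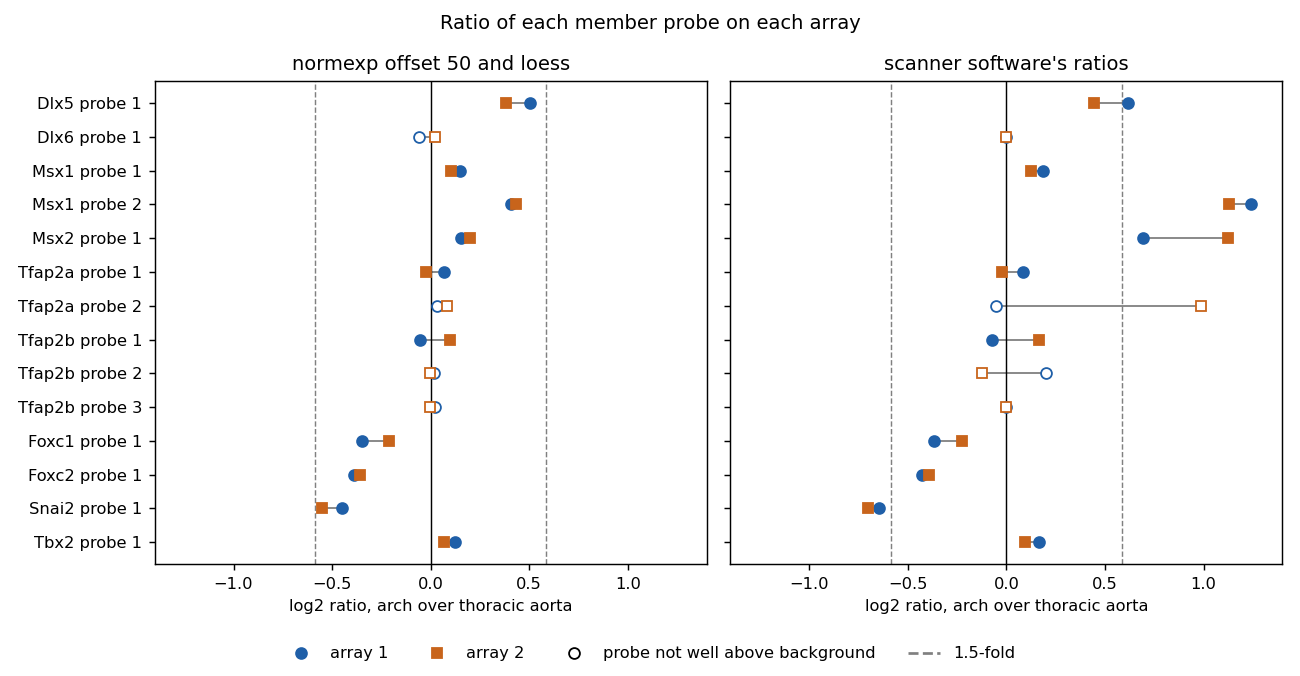
Log2 ratio of arch over thoracic aorta for every probe on array 1 (circles) and array 2 (squares), with the offset of 50 and loess on the left and by the scanner software on the right; open symbols mark probes not well above background in either region on both arrays, and dashed lines the 1.5-fold limits. Foxc1 and Foxc2 hardly move between the panels, whereas the dimmer Msx1 probe moves to 1.19 and Msx2 to 0.91 on the right. Snai2 crosses the limit there on both arrays, and Dlx5 on array 1 only (0.62).

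Foxc1 and Foxc2 are forkhead factors with overlapping roles in the arch arteries, the outflow tract and the mesenchyme around vessels, and Foxc2 is also a regulator of lymphatic valves. Foxc1 read 520 and 549 units in the arch pool, against 661 and 637 in the thoracic pool. Foxc2 read 442 and 501 units in the arch pool, against 579 and 641 in the thoracic pool. For both genes every arch signal lay under both thoracic signals. The ratios were −0.28 ± 0.07 for Foxc1 and −0.37 ± 0.02 for Foxc2, so that thoracic levels were 1.21-fold and 1.3-fold those of the arch. The scanner software gave −0.30 ± 0.07 and −0.41 ± 0.02, and neither gene was called.

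The 2 genes lie on different chromosomes (13 and 8) and were read by different probes. RefSeq's promoter table holds Foxc1, whose 250 bases before the start are shown as those of the forkhead gene below 0, with matches in capitals as above.
Foxc1, chr13:31806396-31806645, plus strand, GRCm38.p6: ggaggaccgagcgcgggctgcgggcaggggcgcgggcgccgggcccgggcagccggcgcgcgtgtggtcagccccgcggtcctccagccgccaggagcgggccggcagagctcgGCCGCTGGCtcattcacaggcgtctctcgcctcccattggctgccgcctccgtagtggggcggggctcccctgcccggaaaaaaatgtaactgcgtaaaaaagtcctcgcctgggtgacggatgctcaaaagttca
It holds 1 AP-2 word, which begins 136 bases before the start and is found in 13.7% of all windows of this length. Neither the forkhead word (12% of all windows) nor the T-box word (11.8%) is in any of the 3 windows shown. The Foxc1 window has 29 CpG sites, the Msx1 window 20 and the Msx2 window 16, against a median of 6 over all windows. Of the windows not shown, that of Tfap2b has 5 and those of Tfap2a have 10 each.

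Snai2, also called Slug, is a zinc-finger repressor of cadherin genes and a marker of crest cells. It had the lowest ratio of the 9 genes. Its probe read 188 and 195 units in the arch pool, against 257 and 285 in the thoracic pool, and every arch signal lay under both thoracic signals. The ratio was −0.50 ± 0.05, so that the thoracic level was 1.42-fold that of the arch, and Snai2 ranked 85th from the lowest of 21366 genes. It met the 1.5-fold rule with an offset of 0 (−0.65 ± 0.05, where 0.487% of all genes were called lower) and by the scanner software (−0.67 ± 0.03, or 1.59-fold lower in the arch).

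Other regulators of the epithelial-mesenchymal transition, the change by which cells leave an epithelium, did not lie where Snai2 did. Twist2 measured 0.17 ± 0.02 and Twist1 0.11 ± 0.00, both basic helix-loop-helix factors, and Snai3 measured 0.03 ± 0.05. Of the 7 SNAI, TWIST and ZEB genes 4 lay above 0 and 3 below, with a median of 0.01 and 0 called.

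Tbx2 is a T-box repressor that keeps myocardium of the atrioventricular canal and outflow tract undifferentiated and takes part in growth of the arches. Its probe read 219 and 205 units in the arch pool, against 202 and 195 in the thoracic pool. The regions did not overlap, but the gap was small, and the ratio was 0.10 ± 0.03 (0.13 ± 0.04 by the scanner software). Its relative Tbx3 measured 0.36 ± 0.19 at its brightest probe (0.59 ± 0.33 by the scanner software), though 0.02 at its lowest, and Tbx5, which patterns the heart and forelimb, measured −0.05 ± 0.05.

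**Figure D3:**
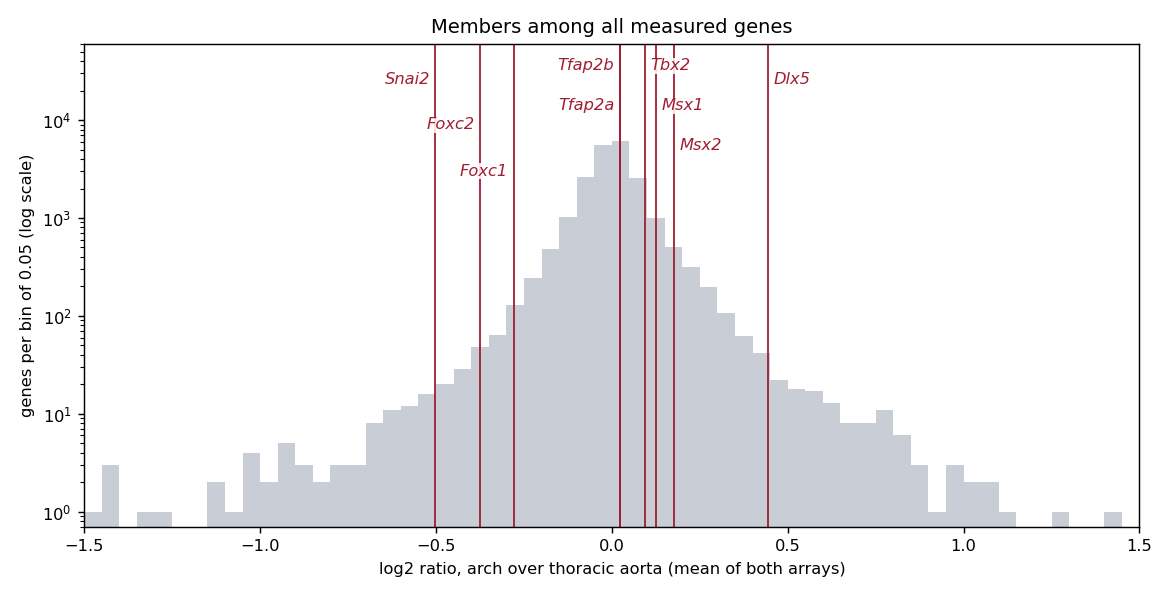
Number of genes (log scale) per bin of mean log2 ratio of arch over thoracic aorta, over all 21366 measured genes, with a line for each of the 9 measured neural crest genes; the axis stops at 1.5 in either direction. Snai2, Foxc2 and Foxc1 stand in the lower tail, Dlx5 in the upper tail, and the other 5 within 0.2 of 0.

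Over all genes 93.1% had a mean ratio within 0.2 of 0, and 5 of the 9 genes did. Foxc2 was 154th and Foxc1 283rd from the lowest ratio, whereas Msx1 was 1744th and Tbx2 2508th from the highest. The rank of Msx1 is that of its brighter probe (0.13), where its dimmer probe gave 0.42. No rank is given for Msx2, whose ratio ran from 0.18 to 0.91 with the treatment of background. The distance of an array from the mean of both, with its sign, had an SD of 0.07 over all genes and of 0.08 among the brightest of 4 groups of genes of equal size, which holds Dlx5, Msx1, Tfap2a, Foxc1 and Foxc2. The ratios of Dlx5, Foxc1, Foxc2 and Msx1 were larger than that spread, and Tfap2a's was not. Snai2 and Tbx2 belong to the next brightest group, with an SD of 0.07, Tfap2b to the one after that with 0.06 and Msx2 to the dimmest. The ratios of Snai2 and Tbx2 were larger than their group's SD, and Tfap2b's was not. This spread is the technical one between 2 arrays of the same pools and holds nothing of the spread between animals.

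The ratio of bright genes moved with the normalisation. With median centring in place of loess, the median over the brightest of those 4 groups was −0.16 in place of −0.01, and over all genes −0.04. Under that setting Foxc1 measured −0.44, Foxc2 −0.53, Snai2 −0.62 and Dlx5 0.30, each on the same side of 0 as with loess. The signs of Msx1 (−0.02), Tbx2 (−0.01), Tfap2a (−0.12) and Tfap2b (−0.02) turned.

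Other neural crest genes came from lists chosen by role. Of 12 specifiers of the crest and its border, 11 were measured, 7 lay above 0 and 4 below, the median was 0.03 and 0 were called. The largest ratio was that of Sox9, which also directs cartilage formation, at 0.31 ± 0.12 (0.74 ± 0.31 by the scanner software), with 0.06 at its lowest probe. Myc measured 0.17 ± 0.00 (0.01 at another probe), Sox5 0.11 ± 0.01 and Foxd3 0.06 ± 0.11.

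Of 20 regulators of the cardiac crest and pharyngeal arches, 16 were measured, 9 above 0 and 7 below, with a median of 0.02. Prrx2, a paired-related homeodomain factor of arch mesenchyme and the ductus arteriosus, was called higher in the arch at 0.63 ± 0.01, or 1.55-fold, on a background of 0.257% of genes called higher. Its relative Prrx1 measured −0.40 ± 0.03 at the brightest of its probes, and the sign of Prrx1 depends on the probe, since the highest gave 0.13. Mef2c, a MADS-box factor that acts between endothelin and the Dlx genes in the arches and also drives muscle genes, measured −0.45 ± 0.01.

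The endothelin pathway, which switches on Dlx5 and Dlx6 in the embryonic arches, had 11 of 11 genes measured, 5 above 0 and 6 below, a median of −0.03 and 0 called. Its receptor gene Ednra measured 0.47 ± 0.08 at the brightest of 3 probes and −0.05 at the lowest. Ece1, the protease that activates endothelin, measured 0.25 ± 0.02, and Ece2 −0.08 ± 0.07. Ednra, at its brightest probe only, and Ece1 were thus among the 5 genes on the side of Dlx5, and Mef2c among the 6 on the other.

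The BMP list, upstream of the Msx genes, had 21 of 22 genes measured, 12 above 0 and 9 below, a median of 0.04 and 0 called. The inhibitory Smad7 measured −0.22 ± 0.04, the BMP antagonist Chrd 0.20 ± 0.01, Id4 0.20 ± 0.15 (0.07 at another probe) and the receptor Bmpr1a −0.17 ± 0.03. Among 13 measured of 16 targets and partners of these factors, 7 lay above 0 and 6 below, with a median of 0.00 and 0 called. The fibulin Fbln1 measured 0.48 ± 0.04, osteopontin (Spp1) 0.48 ± 0.02, N-cadherin (Cdh2) 0.22 ± 0.00 and the small GTPase Rhob 0.21 ± 0.24. By the scanner software Spp1 (0.79 ± 0.05) and Cdh2 (0.85 ± 0.01) met the 1.5-fold rule. E-cadherin (Cdh1), the classical target that Snail proteins repress, was not well above background in either region on both arrays.

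**Figure D4:**
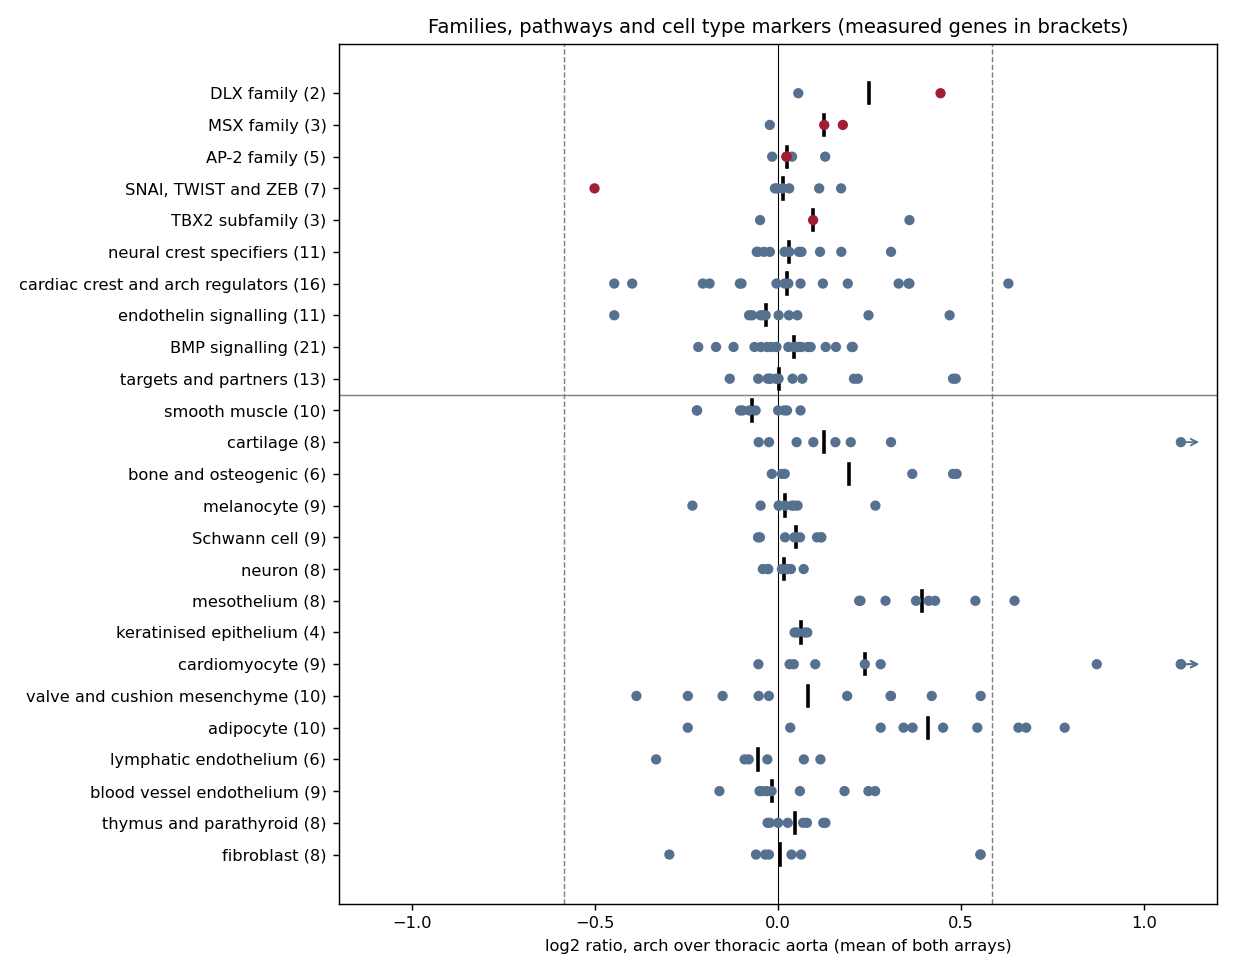
Mean log2 ratio of arch over thoracic aorta for each measured gene of 10 family and pathway lists (above the horizontal line) and 15 cell type marker lists (below it), with the number of measured genes in brackets; black bars are medians, red points the neural crest genes described here, dashed lines the 1.5-fold limits, and arrows mark genes beyond 1.1. The red points span both sides of 0, and mesothelium and adipocyte markers have the highest medians (0.39 and 0.41).

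Markers of several other cell types lay mostly above 0. Mesothelium markers were above 0 in 8 of 8 genes, with a median of 0.39 and 0 called. By the scanner software the median was 0.71 and 4 were called: Upk3b (0.96), Krt19 (0.88), Upk1b (0.80) and Wt1 (0.70). Mesothelium markers had a summed scanner signal of 27689 and 30464 in the arch pool against 18631 and 20185 in the thoracic pool. Adipocyte markers were above 0 in 9 of 10 genes, with a median of 0.41 and 3 called (Pck1, Plin1 and Adipoq), and summed signals of 725909 and 715879 in the arch pool against 552415 and 568055 in the thoracic pool. Cardiomyocyte markers were above 0 in 8 of 9 genes, with a median of 0.24 and 3 called. The called genes were the atrial myosin light chain Myl7 at 2.33 ± 0.01, cardiac troponin T (Tnnt2) at 1.59 ± 0.03 and sarcolipin (Sln) at 0.87 ± 0.04, with 3.18, 2.06 and 1.37 by the scanner software. The summed cardiomyocyte signals of 242048 and 246945 in the arch pool overlapped those of the thoracic pool, 223150 and 258416, and Myh6 was not above background. The part of these cells in the ratios of the 9 genes was not tested.

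Bone and osteogenic markers, the cells in which Dlx5 and Msx2 are best known after birth, were above 0 in 5 of 6 measured genes, with a median of 0.19 and 0 called. By the scanner software the median was 0.35 and Alpl (0.69) and Spp1 were called higher, and without the filter on dim probes the median was 0.014. Alpl, the phosphatase of mineralising cells, measured 0.49 ± 0.02 and Phex 0.37 ± 0.03 (0.64 by the scanner software), while the osteoblast regulators Runx2 and Sp7 measured 0.02 and 0.01 and the markers Ibsp and Bglap were not above background. Summed signals were 9695 and 9979 in the arch pool against 6954 and 7487 in the thoracic pool. Cartilage markers were above 0 in 6 of 8 measured genes, with a median of 0.13. Cytl1 alone was called (1.95 ± 0.00), and Col9a1, Matn1, Matn3 and Cnmd were not above background. Summed signals were 106019 and 111420 in the arch pool against 89460 and 85215 in the thoracic pool. The part of bone and cartilage cells in the ratios was not tested.

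Marker lists of other cells that keep neural crest factors into adult life had medians near 0, over genes on both sides of 0 in most lists. Medians were 0.02 for melanocytes, in 9 of 10 measured genes without Tyrp1, 0.05 for Schwann cells in 9 of 10, without Cdh19, and 0.02 for neurons in 8 of 10. They were 0.06 for keratinised epithelium in 4 of 8, 0.08 for valve and cushion mesenchyme in 10 of 10, 0.05 for thymus and parathyroid in 8 of 8, and 0.01 for fibroblasts in 8 of 8. For lymphatic endothelium, where Foxc2 is a known regulator, the median was −0.06 over 6 of 7 genes, 2 above 0 and 4 below. That median was −0.11 on array 1 alone and 0.05 on array 2 alone. Lyve1 measured −0.33 ± 0.00 (−0.09 at another probe), Flt4 0.12 ± 0.04, Mmrn1 −0.09 ± 0.00 and Pdpn −0.08 ± 0.13. Reln measured 0.07 and Prox1 −0.03. Summed lymphatic signals were 10428 and 10517 in the arch pool against 12599 and 12261 in the thoracic pool, on the same side as Foxc1 and Foxc2, and their part in those ratios was not tested. Blood vessel endothelium had a median of −0.02 over 9 of 10 genes. The spread within lists was widest for valve and cushion mesenchyme, from Vcan at −0.39 to Lum at 0.55, and for fibroblasts, from Col1a1 at −0.30 to Lum. Another probe of Vcan gave 0.16, and the highest probe of Col1a1 gave 0.003. Melanocyte markers ran from Mlana at −0.23 (−0.44 by the scanner software) to Mitf at 0.27 (−0.16 at another probe). None of these 9 lists had a called gene, by the ratios with the offset or by the scanner software's.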

How the data were processed

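Per the submitters' processing notes the arrays were read with Agilent Feature Extraction 9.1.1.1. The deposited files give, per the file headers, a mean signal and local background as an intensity per dye, and a log10 ratio of processed Cy5 over Cy3 signals. The deposited value table matched that log10 ratio, with the arch on top, for 99.9% of features of either array (tolerance 1e-05), and its medians were 0. Its scale and direction are not stated and were taken from the match. The scanner software's log ratio matched the ratio of its processed signals for 90.3% of gene spots on array 1 and 91.3% on array 2.

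Intensities were corrected by normexp (offset 50) and normalised by loess within arrays (limma 3.58.1, R 4.3.3; control spots at weight 0). Spots flagged as outliers (20 and 4) were left out and array 2's sign was turned. Signals per channel also had Aquantile normalisation between arrays. Of 41150 probes 30520 were kept, and a gene took its brightest kept probe. Symbols came from RefSeq (GRCm38.p6): 22852 probes by accession, 10224 by name or synonym, 8074 kept the file's name. On simulated dye swaps the call rule was checked for direction only: no call and no median ratio went against the true change. How many true changes the rule finds was not part of that check. Summed signals of lists are the scanner software's processed intensities.

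Alternatives were an offset of 0, the scanner software's ratios, the value table, median centring, other filters on dim probes, the mean of probes, each array alone, and calls at 1.3-fold and 2-fold. The members and lists were chosen with earlier results of these data known. Named genes are all probes of the members and, per list, up to 4 genes with the largest ratios. The nearest measured gene on each side of a member is named too. Outside this rule, Sp7, Prox1, Reln, Upk1b and Wt1 were named after their values were seen. Tfap2c also ranks below the 4 largest of its list and is named with the rest of its family. No batch holds more than 1 array.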

Additional observations from a re-analysis of the deposited data

How the results depend on the processing

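Dlx5, Foxc1 and Foxc2 kept their direction and stayed short of the 1.5-fold rule under all 9 alternatives run on each gene. Snai2 and Msx2 kept their direction too, but Msx2 was called higher with an offset of 0 (0.75), the scanner software's ratios (0.91) and the value table (0.91), and Snai2 lower (−0.65, −0.67 and −0.67). Msx2 has no value where both regions must be well above background. Median centring turned Msx1 to −0.018, Tfap2a to −0.12, Tfap2b to −0.017 and Tbx2 to −0.010. Single arrays gave −0.021 and 0.067 for Tfap2a and −0.052 and 0.096 for Tfap2b. Against 0 and 0 members called higher and lower, there were 1 and 1 with an offset of 0, with the scanner ratios, with the value table (Msx2 and Snai2) and at 1.3-fold (Dlx5 and Snai2). Over all genes 55 and 49 were called. The counts were 117 and 104 with an offset of 0, 152 and 128 from the scanner ratios or the value table, 28 and 75 with median centring (27.2% of calls higher, against 52.9%), 134 and 112 at 1.3-fold and 9 and 15 at 2-fold. The members' median of 0.023 was 0.038 with an offset of 0, 0.046 from the scanner ratios and the value table, −0.018 with median centring, and 0.067 and 0.069 on single arrays. Median centring also moved the medians of the specifiers (−0.032), cardiac crest regulators (−0.044), BMP list (−0.057) and targets (−0.063). The cardiac crest median was 0.056 with an offset of 0, 0.064 from the scanner ratios or the value table, 0.041 without the filter on dim probes, 0.0086 as the mean of probes, and 0.0093 and 0.018 on single arrays. The BMP median was 0.028 as the mean of probes and 0.021 and 0.036 on single arrays, and that of the targets −0.014 and 0.041. The cause of these shifts was not tested. Dim probes such as that of Msx2 are limited by signal over background. No paired analysis was possible because both arrays hold the same 2 pools and no result comes from a test.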

Other observations

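The gene that lies nearest to Msx1 on one side, among those measured, is Cytl1, in RefSeq's gene order on chromosome 5. Cytl1, a small secreted protein of cartilage found in the files under an older name (Cyt1), had the 2nd highest ratio of all 21366 genes, 1.95 ± 0.00 or 3.87-fold, and 1 long non-coding RNA gene that was not measured lies between them. On the other side of Msx1 the nearest measured gene, Stx18, measured 0.01 ± 0.06.

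The nearest measured genes on each side of the 10 factors, leaving out opposite-strand transcripts, were 19 different genes. They include 1 member, Dlx5 at 0.44, as the neighbour of Dlx6. Cytl1 alone was called and 15 lay within 0.2 of 0, where over all genes 0.487% were called and 93.1% lay within 0.2. Both neighbours of Tbx2 lay above 0, the long non-coding RNA 2610027K06Rik at 0.34 ± 0.00 and the helicase gene Brip1 at 0.24 ± 0.02, where Tbx2 itself measured 0.10. By the scanner software 2610027K06Rik measured 1.15 and Brip1 0.51. Beside Foxc1, the forkhead gene Foxf2 measured −0.15 ± 0.01 and Gmds −0.10 ± 0.02 (−0.58 and −0.21 by the scanner software), and beside Foxc2, Foxl1 measured −0.03 ± 0.13 and Mthfsd −0.04 ± 0.11. Abcc1 and Efcab1, on the sides of Snai2, measured −0.04 ± 0.16 and 0.01 ± 0.07.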
